A study of Danio rerio and Oryzias latipes with 22 samples.

Results

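Collagens are the triple-helical proteins that make up most of the fibrous matrix of a heart scar and the sheets of matrix under its endothelium and epicardium. Fibrillar collagens (types I, II, III, V, XI, XXIV and XXVII) assemble into cross-striated fibrils, in which the abundant type I molecule carries the load and the minor types V and XI start fibrils and limit their width. Basement membrane collagens (types IV, XV and XVIII) form or anchor the thin sheet on which endothelial, epicardial and muscle cells rest. The remaining types include collagens that decorate fibrils (such as XII, XIV, XVI and XXI), the beaded filaments of type VI and the networks of types VIII and X. In injured hearts fibroblast-like cells, many of them derived from the epicardium, are known as a main source of the fibrillar types.

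The members were all gene symbols that begin with "col", a type number, "a" and a chain number, in the list of each species. There were 86 of them among 60830 symbols, 57 of 36999 in zebrafish (Danio rerio) and 29 of 23831 in medaka (Oryzias latipes). Of the zebrafish symbols, 55 name collagens, and the other 2 (col4a3bpa and col4a3bpb) name ceramide transfer proteins that only share the prefix, so they are set apart and enter no count below. All 29 medaka symbols name collagens.

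The 22 samples were dissociated ventricles of adult fish, the wild-type zebrafish strain Tübingen and the medaka strain CAB (6 to 18 months old), taken from uninjured fish (4 samples of each species) or after cryoinjury of the ventricle, in which a frozen probe held against the ventricle kills a patch of it. Injured hearts were taken at 3 days post-injury (d.p.i.; 3 samples of each species) and 14 d.p.i. (6 samples of zebrafish and 2 of medaka). Zebrafish regrow the lost muscle and medaka keep a scar, and the study compared the injury responses of the 2 species. The labels do not say how many fish were pooled in a sample, so p-values measure the spread between these samples.

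Cells were captured in droplets, and each transcript was counted by its unique molecular identifier (UMI). Barcodes with at least 200 genes and at most 40% mitochondrial UMIs were kept, which left 80138 of 126955 barcodes, 48409 of zebrafish (1705 to 6039 a sample) and 31729 of medaka (2751 to 4855). Total UMIs a sample ran from 11107238 to 75811359 in zebrafish and from 14132308 to 47795839 in medaka, and the median UMIs of a kept cell from 662 to 5425 and from 1775 to 5467. Zebrafish uninjured replicates 1 and 2 were counted by an older program version on a shorter gene list. Many zebrafish results are also given without them, and values with no such remark include them. Of 23 zebrafish calls of genes named below that were refitted without them, 6 no longer passed. The zebrafish mitochondrial share counted symbols that begin with mt-, so it missed the COX3 entry of the longer list. Of barcodes with at least 200 genes, the limit kept 2462 of 2734 and 5195 of 5373 in uninjured replicates 1 and 2. In replicates 3 and 4 it kept 2889 of 2889 and 3321 of 3321. The part of this in differences between libraries was not tested. Between libraries, 0.636% of zebrafish and 0.399% of medaka barcodes were shared.

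Levels below are CPM, the UMIs of a gene scaled to a fixed total of the non-mitochondrial UMIs of the same cells in the sample (counts per 1000000). Cells were clustered with the collagens and the genes that act on them left out of the clustering genes, and a cluster took the name of the cell type whose markers led it. The names are therefore rebuilt, and "endothelial" and "epicardial" mean endothelial-like and epicardial-like clusters. Clusters without a name held 22.3%, 47.8% and 30.5% of zebrafish cells in uninjured, 3 d.p.i. and 14 d.p.i. samples, and 23.4%, 37.0% and 21% of medaka cells. Since cells of a type were summed within a sample, more cells of a collagen-rich state and more collagen RNA per cell cannot be told apart.

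Collagen RNA was dominated by a few genes in both species. The zebrafish collagens held 988019 UMIs in kept cells, 70.3% of them from 16 fibrillar genes, 11.7% from 10 basement membrane genes and 18.0% from 29 other genes. The most abundant gene, col1a2 (the alpha-2 chain of type I), held 21.5% of these UMIs, and the 3 most abundant genes (col1a2, col1a1b and col1a1a, all chains of type I) held 54.5%. At the other end, 18 collagens had under 100 UMIs in all 13 samples together and 1 of these, col4a3, had none, while 24 had over 1000.

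Medaka collagens held 92865 UMIs, 48.4% from 7 fibrillar, 32.8% from 4 basement membrane and 18.7% from 18 other genes. Here col1a2 alone held 40.1%, and the top 3 genes (col1a2, col4a1, the major chain of type IV, and COL6A3, a chain of type VI) held 82.5%. Of genes not taken up below, COL21A1 (type XXI) had 1538 UMIs, 45.8% of them endothelial. COL6A6 (type VI) had 144, 93.1% of them epicardial, and col4a5 (type IV) had 17. Of the 29 medaka symbols, 16 had under 100 UMIs, 4 of which (col22a1, col28a2a, col4a6 and col9a1b) had none, and 9 had over 1000. Most of the medaka members could therefore not be followed over time at this depth, and a low count there does not show that a gene is silent. The medaka list also held no symbol for col1a1a, col4a2 or type XV. Collagen genes listed without a symbol of this form would be missed, so the medaka shares and sums cover the listed symbols only.

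Epicardial and endothelial cells held most collagen UMIs in both species, and their shares moved with injury. In zebrafish the epicardial clusters held 40.4% of the collagen UMIs before injury, 77.0% by 3 d.p.i. and 71.7% by 14 d.p.i., and the endothelial clusters 39.9%, 12.2% and 14.7%. In medaka the epicardial share was 42.5%, 15.3% and 56.1% and the endothelial share 35.4%, 75.4% and 33.5%. At 3 d.p.i. most zebrafish collagen UMIs thus lay in epicardial cells and most medaka collagen UMIs in endothelial cells. The named types are not alike in the species, since mural clusters were named in zebrafish and none in medaka. The medaka endothelial cells carried 3304 to 5341 CPM of mural markers at 3 d.p.i., and the zebrafish ones 160 to 363 CPM. These shares count pooled UMIs and follow both the number of cells captured and the UMIs in each cell. Zebrafish had 971, 674 and 2579 epicardial and 6054, 1572 and 6031 endothelial cells at the 3 times. Medaka had 504, 74 and 254 epicardial and 2476, 564 and 1074 endothelial cells. The median UMIs of a zebrafish cell were 4829, 16774.5 and 4206 (epicardial) and 2399, 6237 and 3400 (endothelial). In medaka they were 5117, 2908.5 and 8660 (epicardial) and 3593, 13255.5 and 5040.5 (endothelial). The part of this depth in the shares was not tested.

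**Figure D1:**
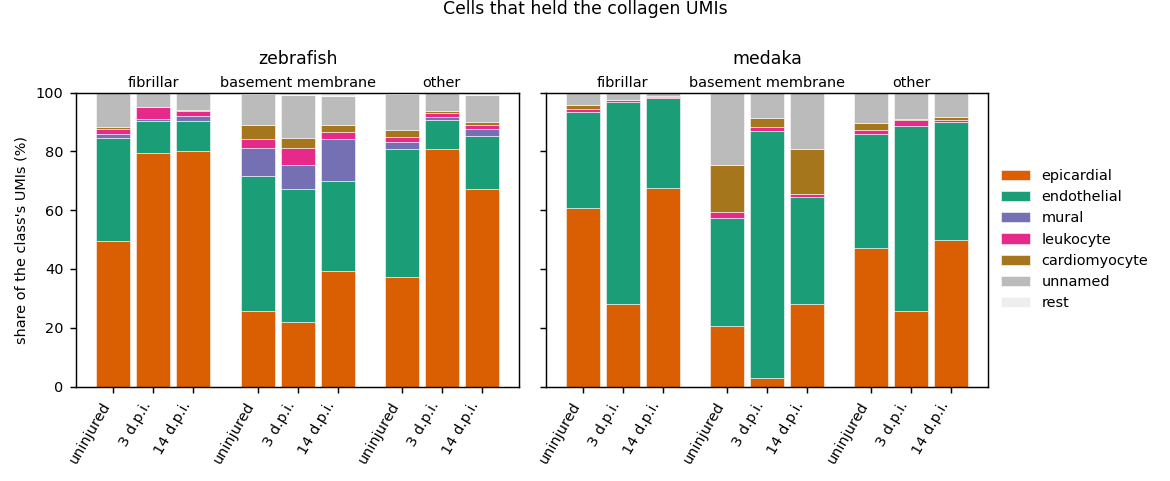
Share of the UMIs of each collagen class (percent, vertical axis) held by each cell type in uninjured, 3 d.p.i. and 14 d.p.i. samples, pooled over samples, zebrafish and medaka. The zebrafish epicardial share of fibrillar UMIs grew from 49.4% to 79.6%, while endothelial cells held 83.9% of medaka basement membrane UMIs at 3 d.p.i. No medaka cluster was named mural.

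The classes had different sources. Zebrafish fibrillar UMIs were epicardial for 49.4%, 79.6% and 80.2% in uninjured, 3 d.p.i. and 14 d.p.i. samples. Basement membrane UMIs were spread more widely, 25.8%, 21.9% and 39.4% in epicardial, 45.9%, 45.3% and 30.6% in endothelial and 9.49%, 8.23% and 14.3% in mural cells, the pericytes and smooth muscle cells that wrap vessels. Of single genes, col11a1a, col11a1b and col12a1b lay almost wholly in epicardial cells, with 97.4%, 95% and 96.2% of their UMIs there, and col12a1a had 89.5%. Zebrafish col4a1 had 42.3% of its UMIs in endothelial and 25.95% in epicardial cells, and the medaka gene 54.8% and 16.1%.

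Per UMI, collagens took the largest share in epicardial cells. The summed level of the 52 zebrafish collagens on every gene list was 7749 ± 2785 CPM (SD, 4 samples) in uninjured epicardial cells, 23437 ± 5151 CPM (3 samples) 3 days after injury and 18322 ± 6733 CPM (6 samples) after 14 days. Endothelial cells held 1903 ± 204, 3749 ± 1846 and 2048 ± 489 CPM, and mural cells 3360 ± 709 CPM when uninjured and 5509 ± 1941 CPM at 14 d.p.i. Erythroid cells, which should make no collagen, held a mean of 56.8, 109 and 235 CPM (2, 3 and 6 samples). Their clusters ran from 25.1 CPM (2453 cells) to 1280 CPM (155 cells). Levels near the erythroid means in other cells may therefore be background. Cardiomyocytes held 60.7, 124 and 111 CPM. Of this, basement membrane genes gave 31.0, 55.6 and 53.2 CPM, and whether cardiomyocytes made this RNA was not tested. Leukocyte clusters of zebrafish held 749, 2700 and 1047 CPM, above the erythroid means, with single samples from 576 to 5013 CPM at 3 d.p.i. Whether these UMIs came from the leukocytes was not tested.

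In medaka the 29 collagens summed to 3806 ± 452 CPM (n = 4), 3108 ± 790 CPM (n = 2) and 8118 ± 3790 CPM (n = 2) in epicardial cells and to 805 ± 147 CPM (n = 4), 1890 ± 512 CPM (n = 3) and 1854 ± 728 CPM (n = 2) in endothelial cells. Erythroid cells held 6.94, 3.57 and 8.96 CPM, leukocytes 32.8, 37.5 and 28.8 CPM and cardiomyocytes 60.9, 105 and 72.5 CPM. These levels and those of the cell types above are descriptions, since the types were defined by clustering.

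Most of the called collagens were in zebrafish epicardial cells. Of 24 collagens that passed the filter on low counts, 9 rose and 5 fell at 3 d.p.i. against uninjured samples (edgeR quasi-likelihood test, adjusted p under 0.05 over all 11921 genes tested). Of all genes tested there, 15.2% rose and 13.5% fell. By class, 6 of 10 fibrillar genes rose and 1 fell, none of 5 basement membrane genes rose and 4 fell, and 3 of 9 other genes rose. The median log2 fold change was 0.68 over the 24 collagens, against -0.02 over all genes tested, 1.94 over the fibrillar and -2.49 over the basement membrane genes. Genes reached this test partly through the group where they were high, so these counts and medians describe the tested genes and not all 55 collagens. Without uninjured replicates 1 and 2, 12 collagens were called in place of 14, and leaving out single libraries gave 11 to 15. The genes called also changed without these replicates. Of the 4 basement membrane genes that fell, col4a2 and col18a1b were still called, col4a1 did not pass and col15a1b missed the filter. The calls of col5a3a and col8a1b were lost as well, and col5a1 gained one.

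The type I chains, the main load-bearing fibril collagen, rose together. In uninjured epicardial cells col1a1a stood at 853, 1207, 959.9 and 460.5 CPM, at 3 d.p.i. at 3177, 4634 and 4360.5 CPM and at 14 d.p.i. at 469 CPM in the lowest sample, 2879.8 CPM at the median and 4277 CPM in the highest. All 3 samples at 3 d.p.i. lay above every uninjured one, whereas the 14 d.p.i. samples overlapped them. The log2 fold change of col1a1a at 3 d.p.i. was 2.06 ± 0.48 (SE, edgeR adjusted p = 0.0062), and at 14 d.p.i. 1.62 ± 0.42 (adjusted p = 0.066). The second alpha-1 chain, col1a1b, went from 1378, 2028, 1151 and 594 CPM to 3400.3, 6529 and 5428 CPM (1.82 ± 0.47, adjusted p = 0.011, and 0.055 without 3 d.p.i. replicate 2). The alpha-2 chain, col1a2, went from 1578, 1743, 1008 and 629 CPM to 4043, 6922 and 6608 CPM (2.06 ± 0.49, adjusted p = 0.0075), and at 14 d.p.i. ran from 808 over a median of 4550.3 to 6862 CPM (1.73 ± 0.44, adjusted p = 0.06).

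The lowest 14 d.p.i. value of all 3 type I chains came from a single library, replicate 6, which held 50 epicardial cells against 596 in the largest. Without it the number of collagens called at 14 d.p.i. against uninjured samples went from 6 to 11.

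The type XI chains, minor fibril collagens best known from cartilage, were nearly without UMIs before injury. No UMI of col11a1a was found in uninjured epicardial cells, and at 3 d.p.i. it stood at 75.4, 399.7 and 166 CPM. Against the floor of 3 UMIs over the uninjured group, this was at least 396-fold higher (adjusted p = 0.0012). At 14 d.p.i. col11a1a ran from 0 over a median of 17.3 to 63.5 CPM, at least 38.3-fold higher than that floor by its mean (adjusted p = 0.048), and it fell by 3.23 ± 0.78 on the log2 scale from 3 to 14 d.p.i. (adjusted p = 0.012).

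Uninjured epicardial cells held a single UMI of col11a1b, in replicate 4, and at 3 d.p.i. the gene stood at 150.0, 249.7 and 262 CPM. The pooled ratio was 1287, with a 95% exact interval from counting error alone of 231 to 50855 (edgeR adjusted p = 0.00043). At 14 d.p.i. col11a1b ran from 0 over a median of 84.5 to 217 CPM (adjusted p = 0.0066). With all samples, both type XI genes thus passed the test at both times. The 14 d.p.i. call of col11a1a was lost without the uninjured libraries that had the shorter gene list. Uninjured epicardial cells held almost no UMIs of either gene, so both reached this test through the injured samples.

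Among the type V chains, which nucleate type I fibrils, the genes moved in different directions. Levels of col5a2a were 219, 286, 328 and 230.4 CPM in uninjured cells and 689, 889 and 1000.02 CPM at 3 d.p.i., a rise of 1.54 ± 0.34 on the log2 scale (adjusted p = 0.0046), and at 14 d.p.i. it stood at 231, 680.1 and 1001 CPM (lowest, median and highest; 1.25 ± 0.30, adjusted p = 0.049). For col5a1 the uninjured samples split, with 1565 and 2038 CPM in replicates 1 and 2 and 602 and 273 CPM in replicates 3 and 4, against 2129, 2944 and 2814 CPM at 3 d.p.i. (1.02 ± 0.53, adjusted p = 0.16). Without replicates 1 and 2 its log2 fold change was 2.57 (adjusted p = 0.0014) at 3 d.p.i. and 2.03 (adjusted p = 0.022) at 14 d.p.i.

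The same split held for col5a3a, another type V chain. It stood at 321 and 412 CPM in uninjured replicates 1 and 2, at 93.4 and 44.9 CPM in replicates 3 and 4 and at 67.2, 43.8 and 36.1 CPM at 3 d.p.i. The fall of 2.39 ± 0.61 on the log2 scale (adjusted p = 0.011) became 0.54 (adjusted p = 0.22) without replicates 1 and 2, so this call rested on the libraries with the shorter gene list. The paralogues col5a2b and col5a3b had 46 and 1 UMIs in all zebrafish cells and were not tested.

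Collagen XII, which binds the surface of type I fibrils and links them, showed the largest change among genes already present before injury. Levels of col12a1a were 25.7, 29.9, 50.0 and 17.1 CPM in uninjured cells and 854, 1592 and 1507 CPM at 3 d.p.i., a rise of 5.32 ± 0.83 on the log2 scale (adjusted p = 0.00085). At 14 d.p.i. it ran from 30.3 over a median of 377 to 1003 CPM (3.79 ± 0.74, adjusted p = 0.022). Its paralogue col12a1b went from 0, 2.3, 72.1 and 21.4 CPM to 696, 928 and 1253 CPM (5.27 ± 1.15, adjusted p = 0.0049). At 14 d.p.i. col12a1b stood at 7.0, 246 and 519 CPM (lowest, median and highest) and did not pass (3.50 ± 1.01, adjusted p = 0.095).

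A network collagen, col8a1b, had its highest median at 14 d.p.i., but its change from 3 to 14 d.p.i. did not pass the test. Levels of col8a1b, a type VIII chain found in vessel walls and under some endothelia, were 7.35, 4.59, 35.2 and 13.2 CPM in uninjured cells, 36.4, 40.5 and 82.4 CPM at 3 d.p.i. and from 21 over a median of 131 to 268 CPM at 14 d.p.i. The rise was 1.70 ± 0.61 at 3 d.p.i. (adjusted p = 0.048) and 3.17 ± 0.58 at 14 d.p.i. (adjusted p = 0.017). Without uninjured replicates 1 and 2 the 3 d.p.i. value was 1.15 (adjusted p = 0.21), and the 14 d.p.i. adjusted p was 0.059.

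The type VI chains, which form beaded filaments close to the cell surface, were not called at 3 d.p.i. Levels of col6a1 were 286, 478, 394 and 239.7 CPM in uninjured cells and 450.1, 514 and 549 CPM at 3 d.p.i. (log2 fold change 0.37, adjusted p = 0.39), and those of col6a2 were 305, 301, 389.9 and 218 CPM and 401, 391 and 532 CPM (0.38, adjusted p = 0.36). For col6a3 the values were 451, 505, 728 and 504 CPM and 535, 432 and 522 CPM (-0.30, adjusted p = 0.39), and for col6a4a 69.9, 45.9, 118 and 179 CPM and 170.0, 79.5 and 95.6 CPM (-0.07, adjusted p = 0.92). None of the 4 passed against uninjured samples at 14 d.p.i. either, where their medians were 683, 634, 762 and 251 CPM in the same order. All 9 tested genes of the other class, these 4 among them, were higher by then at an unadjusted edgeR p under 0.05. DESeq2 called 5 of the 9. From 3 to 14 d.p.i. col6a3 rose by 0.78 ± 0.25 (adjusted p = 0.032) and col6a4a by 1.24 ± 0.40 (adjusted p = 0.033).

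Of the basement membrane collagens tested, 4 of 5 fell at 3 d.p.i. and 3 of these rose again by 14 d.p.i. For col18a1b, a type XVIII chain of epithelial and vascular basement membranes, uninjured samples held 191, 253, 225 and 231 CPM, the 3 d.p.i. samples 54.0, 33.4 and 50.7 CPM and the 14 d.p.i. samples 196 to 539 CPM with a median of 351 CPM. It fell by 2.49 ± 0.34 on the log2 scale (adjusted p = 0.0005) and rose by 3.06 ± 0.34 from 3 to 14 d.p.i. (adjusted p = 0.00021). The fall without uninjured replicates 1 and 2 was 2.43 (adjusted p = 0.00074). The paralogue col18a1a did not pass, with 72.3, 82.7, 99.9 and 55.2 CPM before and 75.6, 60.4 and 47.9 CPM after (-0.50, adjusted p = 0.3).

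The type IV chains, the meshwork of every basement membrane, followed the same course. Levels of col4a2 were 603, 702, 207 and 167 CPM in uninjured cells and 47.3, 20.8 and 19.8 CPM at 3 d.p.i., a fall of 4.1 ± 0.64 (adjusted p = 0.00079), and 168 to 527 CPM at 14 d.p.i. with a median of 218 CPM. Levels of col4a1 were 639.9, 782, 401 and 339 CPM, then 337, 129 and 146 CPM, and then 643 to 1390.2 CPM with a median of 1026 CPM. The 3 d.p.i. value of col4a1 fell by 1.65 ± 0.41 (adjusted p = 0.0087), and both genes rose from 3 to 14 d.p.i., col4a1 by 2.56 ± 0.41 (adjusted p = 0.0011) and col4a2 by 3.46 ± 0.60 (adjusted p = 0.0015). Without uninjured replicates 1 and 2, col4a2 still fell, by 2.78 (adjusted p = 0.0012), and col4a1 had a log2 fold change of -0.98 (adjusted p = 0.068). The col4a1 call was also lost without 3 d.p.i. replicate 2 (adjusted p = 0.054).

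Type XV, found at the outer face of basement membranes, was split between its paralogues. The low gene col15a1b went from 6.13, 12.6, 2.46 and 4.63 CPM to 0.496, 0.275 and 0 CPM at 3 d.p.i. (-4.54 ± 0.90, adjusted p = 0.0028) and stayed low at 14 d.p.i., with 0 to 2.33 CPM (-3.40 ± 0.75, adjusted p = 0.039), but it did not pass the filter on low counts once uninjured replicates 1 and 2 were left out. Only the longer gene list holds col15a1a, so it could not be tested in the same fit. Its values were 66.3 and 32.1 CPM in uninjured replicates 3 and 4, 142, 307 and 267 CPM at 3 d.p.i. and 44.4 to 162 CPM at 14 d.p.i.

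**Figure D2:**
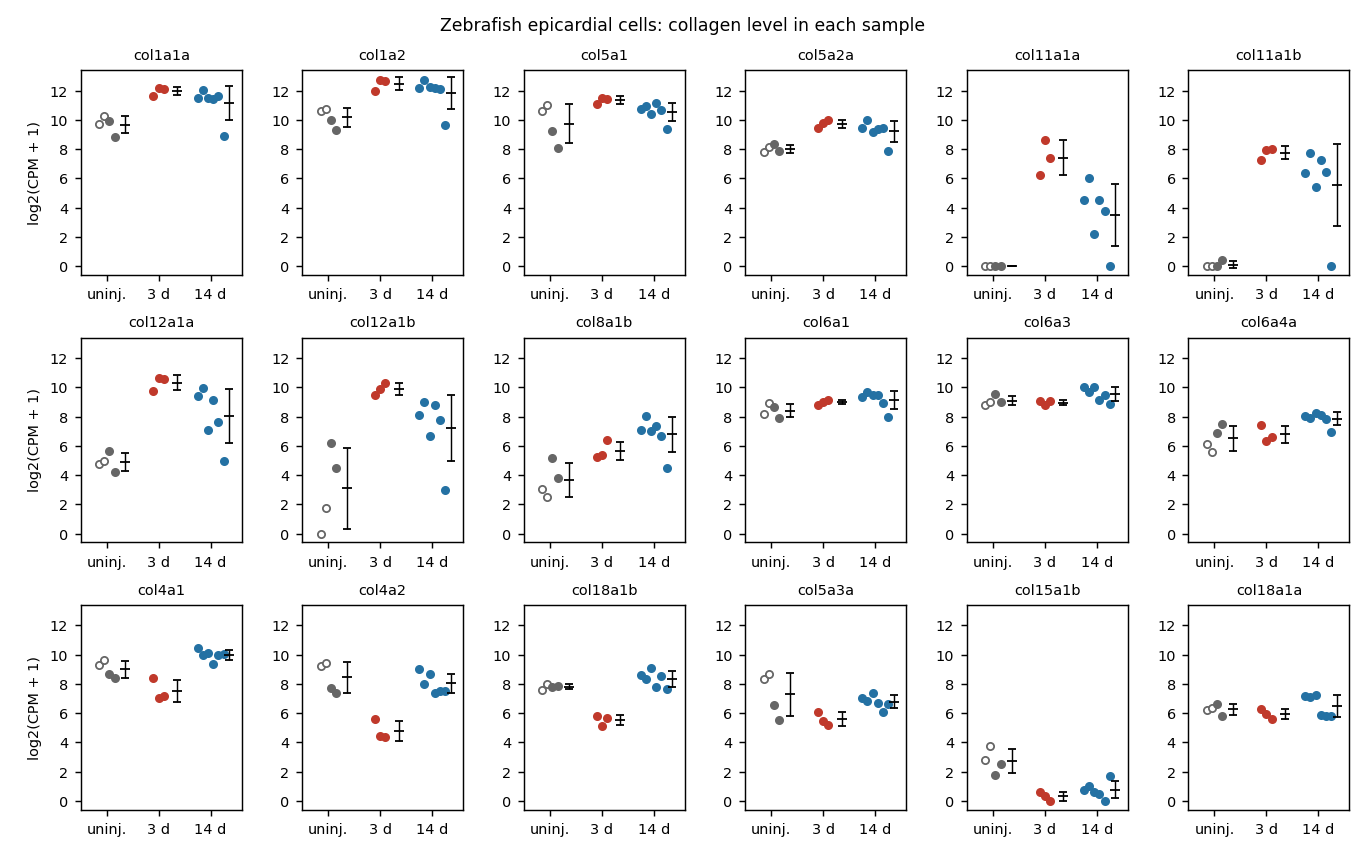
Level of 18 collagen genes in zebrafish epicardial cells, as log2(CPM + 1) per sample (vertical axis), by time point. Points are samples, open circles are uninjured replicates 1 and 2 with the shorter gene list, and the black mark and bar are the mean and SD on that scale. The type I, XI and XII genes sit higher at 3 d.p.i. than before injury, and col4a2 and col18a1b sit lower at 3 d.p.i. than at either other time.

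At 14 d.p.i. zebrafish epicardial cells had fewer calls. Against uninjured samples 5 of 24 collagens rose (col11a1a, col11a1b, col12a1a, col8a1b and col5a2a) and 1 fell (col15a1b), where 0.889% of all genes tested rose and 0.73% fell. The median log2 fold change was 1.09 over the 24 collagens and -0.02 over all genes. Without uninjured replicates 1 and 2, col1a1b, col1a2, col4a1 and col5a1 were called while col11a1a, col12a1a, col5a2a and col8a1b were not, and the count of calls was 5 in place of 6. Leaving out a single library left 1 call (uninjured replicate 1), 2 calls (uninjured replicate 2) or 3 calls (uninjured replicate 4, 3 d.p.i. replicate 3, or 14 d.p.i. replicate 1, 2 or 4). DESeq2 called 13. Between 3 and 14 d.p.i. 5 collagens rose (col4a2, col18a1b, col4a1, col6a4a and col6a3) and 1 fell (col11a1a), against 10.8% and 14.6% of all genes, and 3 calls were left without 3 d.p.i. replicate 2.

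Other values moved with these results in epicardial cells. The summed level of 15 epicardial markers was 2825 to 5887 CPM in uninjured, 9361 to 16581 CPM at 3 d.p.i. and 3443 to 11532 CPM at 14 d.p.i., with 1, 0 and 0 markers at 0. The median UMIs of an epicardial cell were 4829, 16774.5 and 4206. The sum of 22 endothelial markers was 238 to 1298, 85.0 to 334 and 158 to 915 CPM, with 0, 0 and 1 markers at 0, and that of 14 macrophage markers 70.5 to 89.6, 111 to 197 and 53.7 to 233 CPM, with 5, 1 and 0 at 0. Their part in the collagen values was not tested.

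The epicardial clusters had a like course. Collagens took the most CPM in a cluster of 1206 cells led by cilp2, thbs4b, postnb and tnc, genes of the injury matrix and of fibroblasts, where they summed to 26152 CPM and which held 37.2% of all zebrafish collagen UMIs in 2.49% of kept cells. It made up 23.8%, 28.9% and 30.2% of epicardial cells in uninjured, 3 d.p.i. and 14 d.p.i. samples. Of the other 5 clusters, 4 changed more in share at 3 d.p.i. The one led by fgl2b and hapln1a made up 34.1%, 15.7% and 26.4%, the one led by thrsp and adh8a 27.4%, 15.1% and 25.4%, the one led by paplnb and scpp7 11.1%, 27.4% and 13.9%, and the one led by kpna2 and ccnb1 0.309%, 9.05% and 0.465%. The values for all epicardial cells therefore compare different mixes of clusters. Within the cilp2 cluster the median over samples of col1a2 went from 1826 to 7617 and 6829 CPM. That of col12a1a went from 37.0 to 1723 and 870.1 CPM, and that of col18a1b from 289 to 19 and 437 CPM. In the cluster led by fgl2b and hapln1a, col1a2 went from 1441 to 4658 and 3789 CPM and col12a1a from 18.6 to 1119 and 54.2 CPM. Its col4a1 medians of 822, 631 and 1393 CPM stood apart from the 610, 67.9 and 1002 CPM of the cilp2 cluster, in which col4a1 dipped further. In a cluster of 76 cells led by the cell division genes kpna2, ccnb1 and cdc20, collagens summed to 22598 CPM, and 61 of its cells came from 3 d.p.i. samples. These clusters were defined on the same cells, so their levels are descriptions.

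**Figure D3:**
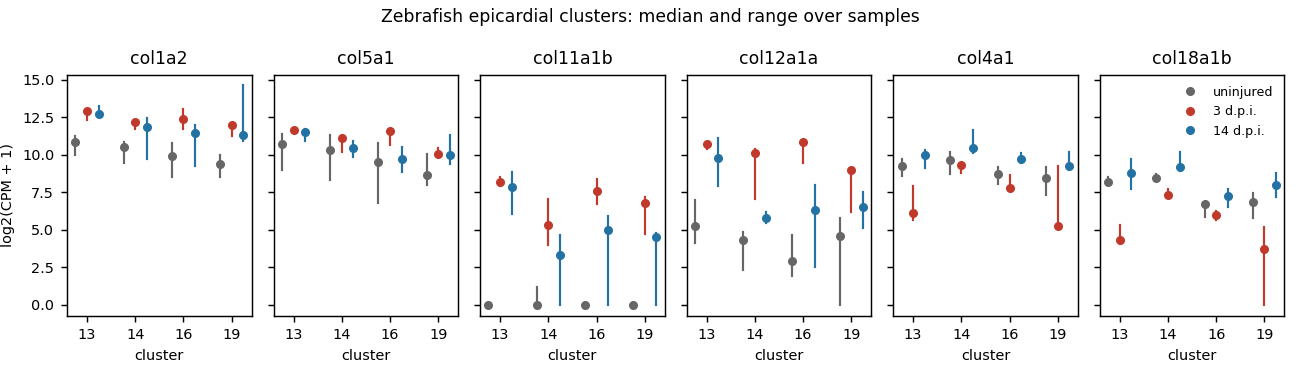
Level of 6 collagen genes (CPM, log axis) within the 4 largest zebrafish epicardial clusters by time point. Points are medians over samples and bars run from the lowest to the highest sample. Medians of col1a2 and col12a1a were higher at 3 d.p.i. than in uninjured samples in each of the 4 clusters, and medians of col18a1b were lower.

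In zebrafish endothelial cells no collagen passed the test at any time. Of 15 tested, 0 were called at 3 d.p.i. by edgeR, where 5.94% of all genes were, with 7 at an unadjusted p under 0.05 and 3 called by DESeq2. At 14 d.p.i. 0 were called against uninjured samples (1.96% of all genes; 3 at an unadjusted p under 0.05 and 0 by DESeq2), and 0 between 3 and 14 d.p.i. (0.766%; 6 and 2). The spread between the 3 d.p.i. samples was wide. Levels of col1a1a were 138, 194, 46.2 and 76.8 CPM in uninjured cells and 534, 195 and 1458 CPM at 3 d.p.i. (2.38 ± 0.83, adjusted p = 0.1), and by 14 d.p.i. they ran from 23.4 over a median of 153 to 243 CPM. The 3 d.p.i. samples lay above the uninjured ones, replicate 2 by the least.

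The chain col1a2 stood at 254, 337, 159.7 and 132 CPM and then at 595, 301 and 1185 CPM in endothelial cells (1.42 ± 0.52, adjusted p = 0.12), and col5a1 at 140.0, 218, 116 and 103 CPM and then at 354, 172 and 612 CPM (1.19 ± 0.45, adjusted p = 0.13). Without uninjured replicates 1 and 2, 4 collagens were called at 3 d.p.i., col1a1a (3.68), col1a1b (3.01), col1a2 (2.43) and col5a1 (1.98), all higher, and at 14 d.p.i. 1 was, col6a4a. Without uninjured replicate 2 alone, 1 was called at 3 d.p.i. The basement membrane chain col4a1 stood at 344, 368, 412 and 399 CPM before injury, 505, 574 and 497 CPM at 3 d.p.i. and 355 to 1036 CPM at 14 d.p.i. (0.42 at 3 d.p.i., adjusted p = 0.41), and col4a2 at 243, 231, 148 and 149 CPM and then at 68.3, 87.8 and 68.8 CPM (-1.48 ± 0.54, adjusted p = 0.12). Type VI and XII chains were not called either, with log2 fold changes at 3 d.p.i. from -0.49 for col6a1 to 1.06 for col12a1a.

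The sum of 22 endothelial markers in these cells was 10991 to 15597 CPM in uninjured, 6533 to 11256 CPM at 3 d.p.i. and 9005 to 15538 CPM at 14 d.p.i., none at 0. Its part in the collagen values was not tested. The sum of 15 epicardial markers was 836 to 2132, 822 to 1507 and 953 to 1415 CPM at the 3 times, with 4, 3 and 1 markers at 0. These ranges overlapped, and which markers set the sum was not tested. Other lists moved. The sum of 14 macrophage markers was 70.1 to 140.5, 164 to 332 and 81.9 to 143 CPM, with 3, 1 and 1 at 0, and that of 20 cardiomyocyte markers 2557 to 3907, 1142 to 1584 and 1522 to 3366 CPM, with 1 at 0 each time. At 3 d.p.i. neither overlapped the uninjured samples, and their part in the collagen values was not tested.

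Mural cells held the highest col4a1 values of the zebrafish types, with 927, 1093, 982 and 1118 CPM before injury and from 1453 over a median of 2226 to 3089 CPM at 14 d.p.i. Only 93 mural cells were found in uninjured and 368 in 14 d.p.i. samples, and at 3 d.p.i. a single sample had enough of them (1431 CPM). Mural cells were not among the types chosen for testing, so the difference between uninjured and 14 d.p.i. samples, whose values did not overlap, was not tested.

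Summed over all kept zebrafish cells, 10 of 31 collagens rose and 1 fell at 3 d.p.i., against 5.31% and 4.88% of all genes tested. The risers were col11a1a, col12a1b, col11a1b, col12a1a, col8a1b, the 3 type I chains, col5a1 and col5a2a, and col4a2 fell. With library size as the only scaling, 11 collagens were higher and 0 lower, and of 17162 genes 1681 were higher and 245 lower in place of 912 and 838. Without uninjured replicates 1 and 2 the fall of col4a2 went from 2.18 to 1.07 (adjusted p = 0.13) and the adjusted p of col8a1b was 0.070, so neither passed. For example, col1a2 went from 193, 256, 134 and 94.1 CPM to 935, 2364 and 1748 CPM (2.84 ± 0.64, adjusted p = 0.017). Leaving out 3 d.p.i. replicate 2 left 5 calls and leaving out replicate 3 left 6. At 14 d.p.i. 1 rose, col8a1b (3.86 ± 0.75, adjusted p = 0.025), and 0 fell, against 0.921% and 1.33% of all genes. With library size only, 211 genes were higher and 56 lower in place of 158 and 229, and without uninjured replicates 1 and 2 the adjusted p of col8a1b was 0.054. Leaving out single libraries gave 0 to 5 calls (0 without uninjured replicate 1 or 2 or 14 d.p.i. replicate 1 or 2, 2 without uninjured replicate 4 and 5 without 14 d.p.i. replicate 6).

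In medaka endothelial cells 12 collagens were tested, and 2 rose and 2 fell at 3 d.p.i., where 19% of all genes tested rose and 17.9% fell. At 14 d.p.i. 2 rose and 0 fell, against 3.07% and 0.655%. The median log2 fold change of the 12 was 0.60 for the earlier time and 1.65 for the later, against -0.07 and -0.05 over all genes. Leaving out 3 d.p.i. replicate 2 left 2 calls at 3 d.p.i. At 14 d.p.i. 1 call was left without uninjured replicate 2, 3 or 4 or 3 d.p.i. replicate 2, and 0 without 14 d.p.i. replicate 1, where the remaining sample is assumed to vary like the others.

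The lowest adjusted p of the medaka collagens belonged to col5a2a, a type V chain. Endothelial cells held 8.4, 8.47, 9.29 and 16 CPM before injury, 64.0, 114 and 58.4 CPM at 3 d.p.i. and 68.9 and 28.4 CPM at 14 d.p.i. No injured sample overlapped an uninjured one. The log2 fold change was 2.89 ± 0.36 at 3 d.p.i. (adjusted p = 0.00042) and 2.39 ± 0.39 at 14 d.p.i. (adjusted p = 0.0096, and 0.12 without 14 d.p.i. replicate 1). It was also higher within some clusters, the median going from 4.08 to 52.6 CPM at 3 d.p.i. in the cluster led by plvapb and from 21.5 to 55.9 CPM in the cluster led by her12 and nppc. In the cluster led by gpr182 and fibina, with 27.3% of uninjured endothelial cells, the median went from 3.09 to 0 CPM, but a single 3 d.p.i. sample with 24 cells had enough of them.

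The type IV chain col4a1 rose in the same cells. It stood at 325, 285, 469 and 183 CPM before injury, 853, 1136 and 1094 CPM at 3 d.p.i. and 414 and 372 CPM at 14 d.p.i. The rise at 3 d.p.i. was 1.71 ± 0.29 (adjusted p = 0.0018), and the 14 d.p.i. value did not pass (0.52, adjusted p = 0.42). Within clusters the median of col4a1 went from 341 to 763 CPM (plvapb), from 219 to 1430 CPM (her12 and nppc) and from 101 to 980 CPM in a cluster led by icn and wfdc1.

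At 3 d.p.i. edgeR called 1 of 4 fibrillar genes in medaka endothelial cells, col5a2a, and DESeq2 called 3, all higher. By edgeR the type I chain col1a2 passed only at 14 d.p.i. against uninjured samples, and not between 3 and 14 d.p.i. Its endothelial values were 241, 332, 293 and 189 CPM before injury, 229.5, 611 and 697 CPM at 3 d.p.i. (0.97, adjusted p = 0.078) and 1185 and 598 CPM at 14 d.p.i. (1.95 ± 0.43, adjusted p = 0.037). The alpha-1 chain col1a1b stood at 9.0, 13.5, 14.9 and 20.0 CPM, then 1.04, 0.334 and 15.7 CPM, and then 51.9 and 39.9 CPM, and passed no test (14 against 3 d.p.i. 3.22, adjusted p = 0.053). Levels of col5a1 were 20.4, 11.3, 12.9 and 13.2 CPM before and 15.6, 44.1 and 34.8 CPM at 3 d.p.i. (1.09, adjusted p = 0.071).

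The 2 genes that fell in medaka endothelial cells were col6a2 and col8a2, chains of types VI and VIII. Levels of col6a2 were 18.0, 29.9, 27.2 and 25.6 CPM before injury, 3.12, 10.4 and 14.7 CPM at 3 d.p.i. and 94.7 and 33.3 CPM at 14 d.p.i., a fall of 1.41 ± 0.50 at the threshold (adjusted p = 0.05) and then a rise of 2.96 ± 0.56 (adjusted p = 0.015). Levels of col8a2 were 5.7, 3.95, 0.664 and 4.62 CPM, then 0.52, 0 and 0.682 CPM, and then 12.3 and 6.62 CPM (-3.12 ± 0.88, adjusted p = 0.02, or 0.066 and 0.067 without 3 d.p.i. replicate 1 or 2, and 4.61 ± 0.91 from 3 to 14 d.p.i., adjusted p = 0.016). Together with col6a1 (2.23 ± 0.49, adjusted p = 0.022) these made 3 of 12 that rose from 3 to 14 d.p.i., against 5.74% of all genes. That count was 0 without 3 d.p.i. replicate 2 and without either 14 d.p.i. replicate, and 1 without 3 d.p.i. replicate 1.

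The clusters differed for col6a2. In the cluster led by icn and wfdc1 its median went from 209 to 2.48 and 142 CPM, and in the plvapb cluster from 2.83 to 19.4 and 14.8 CPM. The first made up 5.21%, 29.6% and 13% of medaka endothelial cells and the plvapb cluster 47.9%, 28.9% and 22.3%. COL6A3, the most abundant type VI chain, stood at 82.2, 97.6, 133 and 170.0 CPM, then 109, 289 and 186 CPM, and then 404 and 179.7 CPM (0.72 at 3 d.p.i., adjusted p = 0.14).

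**Figure D4:**
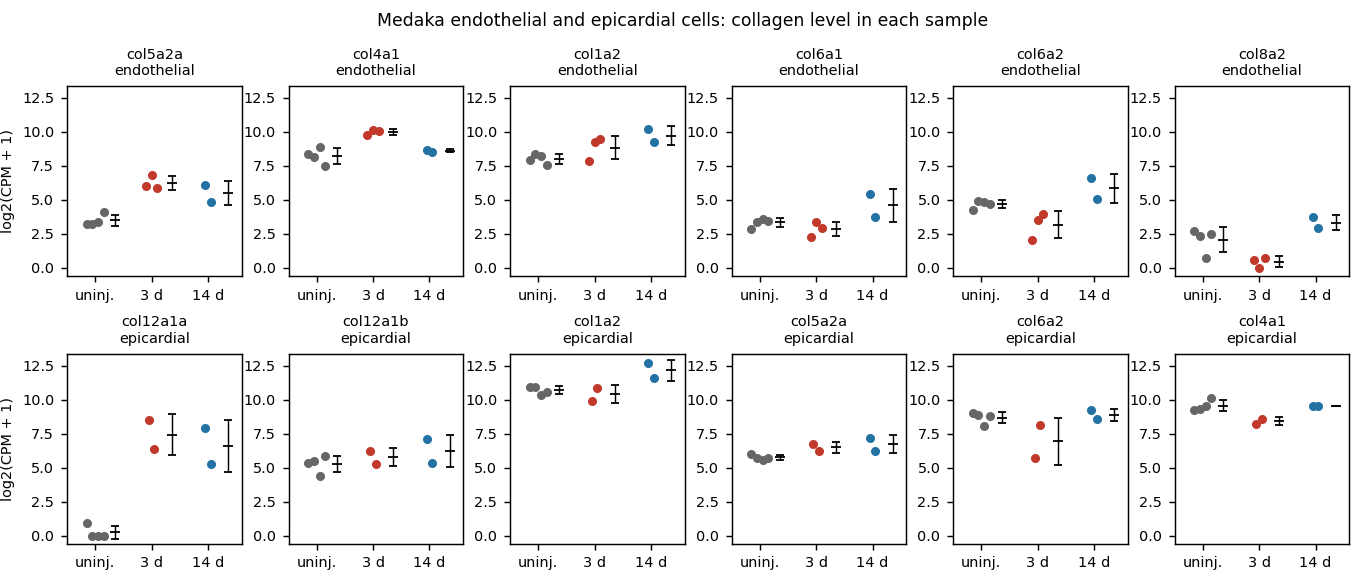
Level of 6 collagen genes in medaka endothelial cells and 6 in medaka epicardial cells, as log2(CPM + 1) per sample (vertical axis), by time point, with the mean and SD on that scale in black. Endothelial col5a2a and col4a1 sit higher at 3 d.p.i. than in every uninjured sample, and epicardial col12a1a goes from at most 0.948 CPM to at least 36.8 CPM.

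Marker values moved in these cells as well. Medaka endothelial marker sums over 17 genes were 5881 to 8617 CPM in uninjured, 4041 to 4806 CPM at 3 d.p.i. and 5823 to 6912 CPM at 14 d.p.i., none at 0. The sum of 12 mural markers was 1278 to 2963, 3304 to 5341 and 1384 to 1553 CPM, with 1, 2 and 2 at 0, and that of 7 macrophage markers 5913 to 10365, 994 to 2114 and 2842 to 4571 CPM, with 0, 0 and 1 at 0. Epicardial markers (11 genes) were low throughout, at 33.1 to 96.5 CPM. In uninjured samples the macrophage median (6516 CPM) was thus near that of the endothelial markers (6776 CPM). The sum of 5 general leukocyte markers, in contrast, was only 10.2 to 17.6, 7.02 to 47.4 and 10.0 to 17.5 CPM, with 0, 1 and 0 at 0. Which genes or cells set the macrophage sum was not tested. At 3 d.p.i. the mural median (3626 CPM) was near the endothelial one (4182 CPM). The cluster led by icn and wfdc1 went from 5.21% to 29.6% of these cells, so the 3 d.p.i. values compare different mixes of clusters. The part of these in the collagen values was not tested.

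Medaka epicardial cells had few cells behind them at 3 d.p.i., 74 in all, and replicate 2 there had too few (9) to enter the fit. Of 13 collagens tested 1 rose and 0 fell at 3 d.p.i., against 10.4% and 8.97% of all genes, and 1 rose and 0 fell at 14 d.p.i., against 0.756% and 0.0945%. Without 3 d.p.i. replicate 3, when replicate 1 alone stands for that time and is assumed to vary like the others, 2 were called at 3 d.p.i. Between 3 and 14 d.p.i. edgeR called 0 of 13, as it called 0% of all genes, with 5 at an unadjusted p under 0.05 and 3 called by DESeq2.

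The gene that rose was col12a1a, of the fibril-binding type XII. In uninjured epicardial cells it had a single UMI, in replicate 1 (0.948, 0, 0 and 0 CPM), and it stood at 359 and 80.8 CPM at 3 d.p.i. and at 247 and 36.8 CPM at 14 d.p.i. The pooled ratio to uninjured cells was 429 at 3 d.p.i., with a 95% exact counting interval of 75.8 to 17077, and 301 at 14 d.p.i. (53.6 to 11907), with edgeR adjusted p-values of 0.0034 and 0.017. The call at 14 d.p.i. did not hold without uninjured replicate 1 or 4 or without 14 d.p.i. replicate 1 (adjusted p from 0.063 to 0.09). Its paralogue col12a1b was already present and did not pass, with 38.9, 44.7, 20.0 and 55.7 CPM before and 73.6 and 38.1 CPM at 3 d.p.i. (0.32, adjusted p = 0.72).

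The type I chain col1a2 stood at 1963, 1967, 1307 and 1519.9 CPM in uninjured medaka epicardial cells, at 974 and 1908 CPM at 3 d.p.i. (-0.33, adjusted p = 0.65) and at 6779.8 and 3147 CPM at 14 d.p.i. (1.61, adjusted p = 0.18). Levels of col5a1 were 182, 185, 72.5 and 89.2 CPM and then 277 and 194 CPM (0.65, adjusted p = 0.44), and those of col5a2a 63.5, 50.9, 47.5 and 52.0 CPM and then 108 and 73.2 CPM (0.64, adjusted p = 0.29). The type IV chain col4a1 stood at 609, 637, 755 and 1102 CPM and then at 294 and 390.4 CPM, below all uninjured samples without passing the test (-1.20 ± 0.39, adjusted p = 0.054). Of type VI, col6a2 went from 508, 468, 269.9 and 442 CPM to 51.9 and 284 CPM (-1.39, adjusted p = 0.16), while COL6A3 had 256, 300.3, 282 and 372 CPM and then 177 and 346 CPM.

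The epicardial markers of medaka (11 genes) summed to 5397 to 8498 CPM in uninjured, 723 and 3989 CPM at 3 d.p.i. and 6064 to 7913 CPM at 14 d.p.i., with 0, 2 and 0 at 0, so the cells behind the 3 d.p.i. values carried less of their own markers. Markers of other types moved there as well. The sum of 9 thrombocyte markers was 527 to 1294 CPM in uninjured samples, 1324 and 2571 CPM at 3 d.p.i. and 491 and 722 CPM at 14 d.p.i., with 1, 3 and 1 at 0. That of 5 T or NK lymphocyte markers was 7.43 to 30.0, then 64.9 and 74.7, then 26.9 and 29.2 CPM, with 0, 2 and 0 at 0, and that of 16 cardiomyocyte markers 548 to 1227, then 186 and 333, then 177 and 2932 CPM, with 0, 4 and 1 at 0. The sum of 12 mural markers was 2523 to 5431, then 3379 and 5246, then 3264 and 3359 CPM. Of these markers 2, 5 and 2 were at 0. At 3 d.p.i. the mural median of 4312.5 CPM lay above the 2356 CPM of the epicardial markers. The part of these lists in the rise of col12a1a was not tested.

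Over all kept medaka cells, 3 of 14 collagens rose at 3 d.p.i. (col12a1a, col5a2a and col4a1), against 15.1% of all genes, and 1 fell, against 15.5%. At 14 d.p.i. 1 rose, col12a1a, and 0 fell, against 0.761% and 0.013%, and none was left without 14 d.p.i. replicate 1.

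The medaka gene that fell over all cells was col18a1a. It stood at 0.673, 0.682, 1.32 and 0.396 CPM in uninjured samples and had no UMI at 3 d.p.i., which was at least 10.3-fold lower against the floor of 3 UMIs over that group (adjusted p = 0.014). Of its 65 UMIs, 92.3% lay in a cardiomyocyte cluster of 215 cells led by tbx3a and shox2, transcription factors of the cardiac pacemaker and conduction tissue. That cluster held 180 cells of uninjured samples, 8 of 3 d.p.i. and 27 of 14 d.p.i., so fewer of these cells and less of the RNA in each cannot be told apart here. At 14 d.p.i. the gene had 2 UMIs against 63 in uninjured samples and did not pass (adjusted p = 0.22), the pooled ratio of uninjured to injured being 21.9 with a 95% exact counting interval of 5.81 to 185.

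**Figure D5:**
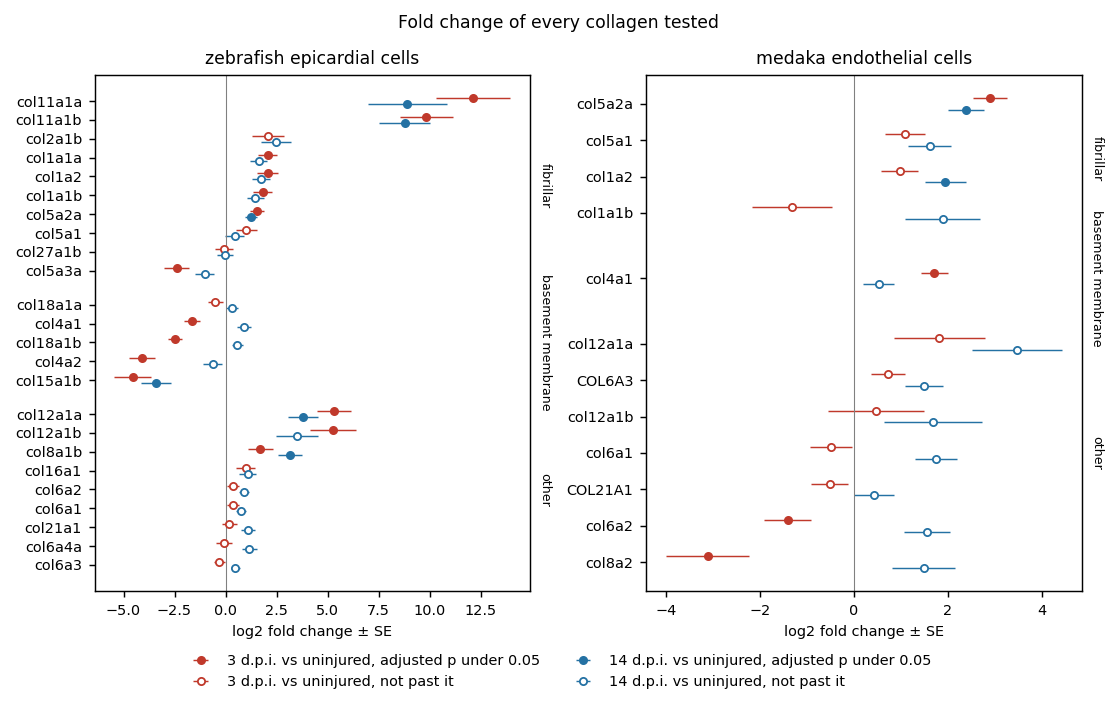
Log2 fold change and SE (horizontal axis) of every collagen tested in zebrafish epicardial and medaka endothelial cells, at 3 and 14 d.p.i. against uninjured samples. Filled points have an adjusted p under 0.05, 14 of 24 and 6 of 24 in zebrafish and 4 of 12 and 2 of 12 in medaka.

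The difference between the species in the 3 d.p.i. response was tested directly for genes with the same symbol in both, which stands in for orthology. The cells compared were also unlike. At 3 d.p.i. medaka endothelial cells held 3304 to 5341 CPM of mural markers and zebrafish ones 160 to 363 CPM. Medaka epicardial cells then came from 2 samples, with 723 and 3989 CPM of epicardial markers against 5397 to 8498 CPM when uninjured. The part of this in the interaction was not tested. No collagen was called by edgeR, in endothelial cells (0, where 5.88% of all genes were called; DESeq2 called 2) or in epicardial cells (0, where 2.87% were; DESeq2 called 3). The values nearest to the threshold in epicardial cells were col12a1b, whose log2 fold change was lower in medaka by 4.97 ± 1.34 (medaka minus zebrafish -4.97, adjusted p = 0.059), col1a1b (-2.20 ± 0.61, adjusted p = 0.064) and col1a2 (-2.40 ± 0.66, adjusted p = 0.065). Without zebrafish uninjured replicates 1 and 2, these 3 epicardial collagens were called. With a single replicate left out, col12a1b was called without zebrafish uninjured replicate 1 or 3. Likewise col1a1b was called without zebrafish uninjured replicate 2, and col1a2 without medaka uninjured replicate 3. For col12a1a the difference was 3.39 ± 1.11 (adjusted p = 0.11). Of the type V and VI chains, col6a2 had the lowest adjusted p (0.21) and col6a3 the highest (0.99). The adjusted p was 0.85 for col5a1 and 0.33 for col5a2a. For col6a2 the difference was -1.75 ± 0.74. It was -3.74 without medaka 3 d.p.i. replicate 3 and with at least 30 cells per sample, when replicate 1 alone stands for that time.

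In endothelial cells the interaction of col5a2a was 1.91 ± 0.57 (adjusted p = 0.061) and that of col4a1 1.22 ± 0.44 (adjusted p = 0.12). For col1a1b the interaction had the other sign (-2.88 ± 1.22, adjusted p = 0.18). Without zebrafish uninjured replicates 1 and 2, edgeR called col5a2a (2.33, adjusted p = 0.0088) and col1a1b (-4.35, adjusted p = 0.040). It called col5a2a without zebrafish uninjured replicate 1, and col1a1b (-5.81) without medaka 3 d.p.i. replicate 3. Under no setting did edgeR call col4a1. With all samples DESeq2 called col5a2a and col4a1 in endothelial cells (adjusted p = 0.016 and 0.043) and col12a1b, col1a1b and col1a2 in epicardial cells (adjusted p = 0.014, 0.016 and 0.013). In epicardial cells edgeR also called col1a1b and col1a2 with library size only, with no filter on low counts, with a 15% mitochondrial limit, with at least 500 genes per cell and without the cells of the highest doublet scores, and col1a1b alone at 1.5 times the resolution (adjusted p from 0.017 to 0.049 for col1a1b). The difference between the species in these collagens thus depended on the tool and the settings, and for the other collagens a change past the threshold in a single species was not shown to differ between the species with all samples.

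Genes whose products modify, fold, secrete and cross-link collagen were counted in the same fits. Of 39 such genes tested in zebrafish epicardial cells 21 rose and 0 fell at 3 d.p.i., and 2 rose (colgalt1 and loxl2b) and 0 fell at 14 d.p.i. against uninjured samples. From 3 to 14 d.p.i. 3 rose and 13 fell. The shares of all genes called in these comparisons stand with the collagens above. In zebrafish endothelial cells 2 of 35 rose and 1 fell at 3 d.p.i., against 2.8% and 3.14% of all genes, and edgeR called 0 at 14 d.p.i. against uninjured samples (8 at an unadjusted p under 0.05 and 4 by DESeq2). In medaka 15 of 30 rose and 2 fell (loxl1 and tll1) in endothelial cells at 3 d.p.i., and 6 of 27 rose and 1 fell (adamts14) in epicardial cells.

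In zebrafish epicardial cells serpinh1a, the collagen chaperone Hsp47, went from a mean of 13.5 ± 8.06 CPM (SD, n = 4) to 175 ± 33.4 CPM (n = 3; 3.60 ± 0.52, adjusted p = 0.00059). The prolyl 3-hydroxylase gene p3h1 went from 10.4 ± 4.18 to 75.0 ± 12.3 CPM (2.73 ± 0.38, adjusted p = 0.00052), and creb3l1, a transcription factor of the secretory pathway, from 1.45 ± 1.23 to 16.6 ± 10.6 CPM (3.03 ± 0.65, adjusted p = 0.0041). In zebrafish endothelial cells p4ha2, a prolyl 4-hydroxylase, rose by 1.94 ± 0.46 (adjusted p = 0.030) and plod1a, a lysyl hydroxylase, by 1.05 ± 0.25 (adjusted p = 0.031), and mia3, which loads collagen for export, fell by 1.06 ± 0.21 (adjusted p = 0.015).

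In medaka endothelial cells sparc, a matrix protein that binds collagen, went from a mean of 155 to 1791 CPM at 3 d.p.i. (3.50 ± 0.38, adjusted p = 0.00023). The cross-linking enzyme gene loxl2a went from 31.1 to 364 CPM (3.49 ± 0.62, adjusted p = 0.0027), and plod3, a lysyl hydroxylase, from 2.37 to 21.9 CPM (3.19 ± 0.32, adjusted p = 0.00017). In medaka epicardial cells loxl2a went from 147 to 748 CPM (2.34 ± 0.45, adjusted p = 0.0083), p4ha1b from 79.9 to 513 CPM (2.52 ± 0.53, adjusted p = 0.011) and p3h4 from 1.96 to 41.9 CPM (3.87 ± 0.74, adjusted p = 0.0084). Without 3 d.p.i. replicate 1 the adjusted p of p3h4 was 0.062, and without replicate 3 that of p4ha1b was 0.088. The genes loxl2a and p3h1 were among those called by the edgeR interaction test in epicardial cells with all samples. Their values were 3.39 ± 0.58 (adjusted p = 0.00754) and -2.28 ± 0.589 (adjusted p = 0.0484), medaka minus zebrafish.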

How the data were processed

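Ventricles were dissociated and profiled by droplet single-cell RNA sequencing (10x Genomics). The authors aligned reads and counted UMIs with Cell Ranger (3.1.0 for zebrafish uninjured replicates 1 and 2 and 5.0.0 for the other samples, per the file headers), and the deposited matrices hold raw UMI counts per gene and called barcode, with no normalization or cell filter. The zebrafish genome build named in the processing notes is GRCz11. Medaka genes keep their deposited symbols, without the renaming by orthology that the study applied, and genes were joined by symbol (28107 zebrafish symbols in every list). Mitochondrial entries, which held 24.8% to 75.6% of zebrafish and 7.67% to 27.9% of medaka UMIs, were left out of library sizes and tests. These entries include COX3 of the longer zebrafish list, which the limit on mitochondrial UMIs did not count.

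Cells with at least 200 genes and at most 40% mitochondrial UMIs were integrated per species with Seurat 5.3.0 on 2000 variable genes without collagens or collagen-making genes, reduced to 30 components and clustered with leidenalg 0.10.2 (scanpy 1.11.5, 20 neighbours, resolution 1.5), giving 119 zebrafish and 73 medaka clusters, 43 and 45 of at least 20 cells. Clusters were named from marker lists where at least 3 markers were raised. A cluster whose leading genes belonged to another list stayed unnamed, including an endothelial-led one with 7.71%, 3.33% and 5.74% of zebrafish cells and one with 9.79%, 1.63% and 7.27% of medaka cells at the 3 times. Scrublet's own threshold marked 0.287% and 0.252% of cells, so it had not worked and no doublets were removed; leaving out the cells with the highest scores was an alternative.

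The counts of each cell type were summed within a sample (at least 10 cells) and tested with edgeR 4.0.16 in R 4.3.3 (quasi-likelihood, robust, TMM, default filter), with 3 time points in 1 fit, no replicate block and a threshold of 0.05 on p-values adjusted by Benjamini-Hochberg over every gene tested. The species were compared by the interaction term over uninjured and 3 d.p.i. samples. DESeq2 1.42.0 and the other alternatives stand in the closing section. The fits were tested on simulated data. Exact counting intervals and floors cover counting error only. The members, gene lists and tests were chosen with earlier results of these data known.

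Named were, per species, the 4 most abundant members of each class, up to 5 members that rose and 3 that fell most in endothelial and epicardial cells at 3 and 14 d.p.i. against uninjured samples, all members of collagens V, VI and XII, members called in an interaction, and up to 3 collagen-making genes per cell type. Other genes were named after their values were seen. Sequences are not shown.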

Additional observations from a re-analysis of the deposited data

Results flagged for a closer look

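Among 26 groups of 4 to 10 samples of named genes tested for a sample far from the rest, 4 had one. Chance gives about 1 in 20 groups, a rate that does not hold for the first 2 below, where a single UMI among samples at 0 sets the whole range. In medaka epicardial cells uninjured replicate 1 held col12a1a at 0.9481 CPM, its single UMI, and the other 3 samples were at 0. In zebrafish epicardial cells uninjured replicate 4 held col11a1b at 0.3561 CPM, again a single UMI, with the other 3 at 0. In medaka endothelial cells uninjured replicate 4 held col5a2a at 16.02 CPM, above the next value of 9.295 CPM and still below every injured sample. In zebrafish epicardial cells 14 d.p.i. replicate 2 held col11a1a at 63.45 CPM against a next value of 22.35 CPM.

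With all samples, the interaction test called 6 collagen-making genes for the response at 3 d.p.i., given as medaka minus zebrafish on the log2 scale. How far these calls depend on single replicates or other settings is not given here. The medaka epicardial cells at 3 d.p.i. came from 2 samples. The 6 genes were 3 of 28 tested in endothelial cells, where 5.88% of all genes were called, and 3 of 30 in epicardial cells, where 2.87% were. In endothelial cells these were p3h2, a prolyl 3-hydroxylase (-4.056 ± 1.01, edgeR adjusted p = 0.0306), plod3, a lysyl hydroxylase (2.688 ± 0.536, adjusted p = 0.0118), and sec23a, a coat protein of transport vesicles (2.135 ± 0.501, adjusted p = 0.0254). In epicardial cells they were loxl2a, a lysyl oxidase-like cross-linking enzyme (3.386 ± 0.58, adjusted p = 0.00754), and the prolyl 3-hydroxylase family genes p3h1 (-2.281 ± 0.589, adjusted p = 0.0484) and p3h3 (-2.689 ± 0.615, adjusted p = 0.0288).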

How the results depend on the processing

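Across 375 alternative counts of called collagens, 295 stayed within 1.5 times the reported count. These include counts of 0 where 0 was reported, and the measure does not ask which genes were called. DESeq2 in place of edgeR called 14 in place of 1 (all zebrafish cells, 14 d.p.i.), 13 and 10 in place of 6 and 6 (zebrafish epicardial cells, 14 d.p.i. against uninjured and against 3 d.p.i.), 3 and 2 in place of 0 (zebrafish endothelial cells, 3 d.p.i. against uninjured and 14 against 3 d.p.i.), 3 in place of 1 (all medaka cells, 14 d.p.i.), 6 and 5 in place of 2 and 3 (medaka endothelial cells, 14 d.p.i. against uninjured and against 3 d.p.i.), 2 and 3 in place of 1 and 0 (medaka epicardial cells, 3 d.p.i. and 14 against 3 d.p.i.), and 2 and 3 in place of 0 in the endothelial and epicardial interactions. With library size only, the counts were 3 (all zebrafish cells, 14 d.p.i.), 1 (zebrafish endothelial cells, 14 against 3 d.p.i.), 2 (medaka epicardial cells, 3 d.p.i.) and 2 (epicardial interaction), and the split of higher and lower calls went from 3 and 0 to 3 and 1 in medaka endothelial cells (14 against 3 d.p.i.) and from 1 and 0 to 1 and 1 in medaka epicardial cells (3 d.p.i.). This scaling shifted the median log2 fold change of all genes by up to 0.31 (all zebrafish cells, 3 d.p.i.) and -0.22 (medaka endothelial cells, 14 d.p.i.). It also moved the split of higher and lower calls over all genes, from 358 and 401 to 293 and 213 and from 106 and 144 to 57 and 132 (zebrafish endothelial cells, 3 and 14 d.p.i.), from 1293 and 1745 to 845 and 1904 (zebrafish epicardial cells, 14 against 3 d.p.i.), from 347 and 74 to 283 and 201 and from 649 and 640 to 423 and 1158 (medaka endothelial cells, 14 d.p.i. against uninjured and against 3 d.p.i.) and from 271 and 270 to 241 and 116 (endothelial interaction). With no filter on low counts, medaka endothelial cells had 4 calls at 14 d.p.i., medaka epicardial cells 2 at 3 d.p.i., 4 at 14 d.p.i. and 4 between these times, and the epicardial interaction 2. With a 15% mitochondrial limit the counts were 2 (all zebrafish cells, 14 d.p.i.), 1 (medaka endothelial cells, 14 d.p.i.) and 2 (epicardial interaction), and with at least 500 genes per cell 3 (all zebrafish cells, 14 d.p.i.) and 2 (epicardial interaction). The epicardial interaction had 1 call at 1.5 times the resolution, 2 without the cells of the highest doublet scores and 1 with at least 30 cells per sample, a limit that gave 2 in medaka epicardial cells at 3 d.p.i. With the held-back endothelial cluster the counts were 1 (medaka endothelial cells, 14 d.p.i.) and 1 (endothelial interaction). The cause of these differences was not tested.

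Without zebrafish uninjured replicates 1 and 2 together, 6 were called in all zebrafish cells at 14 d.p.i., 4 and 1 in zebrafish endothelial cells at 3 and 14 d.p.i., and 2 and 3 in the endothelial and epicardial interactions. Leaving out single replicates gave 5 to 11 calls (all zebrafish cells, 3 d.p.i.) and 0 to 5 (14 d.p.i.), 0 to 1, 0 and 0 (zebrafish endothelial cells, 3 d.p.i., 14 d.p.i. and 14 against 3 d.p.i.), 11 to 15, 1 to 11 and 3 to 8 (zebrafish epicardial cells, the same order), 4 to 6 and 0 to 1 (all medaka cells, 3 and 14 d.p.i.), 2 to 5, 0 to 3 and 0 to 4 (medaka endothelial cells), 1 to 2, 0 to 1 and 0 (medaka epicardial cells), and 0 to 1 in each interaction.

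With the replicate block, 0 collagens were called in all zebrafish and all medaka cells at 14 d.p.i. and 0 in medaka endothelial cells at 14 d.p.i., where 1, 1 and 2 were reported, and 9 of 39 named-gene calls no longer passed. Deviations of same-numbered samples from their group means had correlations from -0.331 to 0.256 over 49 pairs, 6 of them over 0.1. Deviations within such small groups partly cancel, so these values cannot exclude a batch shared by same-numbered samples. The labels do not say what the replicate number stands for.

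Of 39 named-gene calls, none reversed under any alternative run. Over alternatives other than single replicates, 37 of 416 values no longer passed, and over single replicates left out, 66 of 440. Removing the cells that Scrublet marks was not run, since it marked too few. Leaving out the cells with the highest scores and adding the held-back cluster were chosen after seeing the data. Depth limits the medaka epicardial cells at 3 d.p.i. (74 cells) and the 16 medaka and 18 zebrafish collagens under 100 UMIs.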

Other observations

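Some low collagens were concentrated in a few cells of zebrafish 14 d.p.i. replicate 5. Of 2662 UMIs of col10a1b, a network collagen known from cartilage and bone, 97.1% came from 6 cells of that library, and 96.3% of all its UMIs lay in the epicardial cluster led by paplnb, scpp7 and enam. Of 1191 UMIs of col10a1a, 97.6% came from 6 cells of the same library. That library also held 96.4% of the UMIs of col17a1b, a transmembrane collagen of epithelial attachment, and 41.0% of those of col14a1b. Apart from it, 95.7% of the 184 UMIs of zebrafish col9a2, a fibril-decorating collagen of cartilage, lay in an unnamed cluster led by rspo1 and angptl7.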
